A study of Camelus dromedarius with 4 samples.

Results

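The homeostatic microglia genes are a list of 10 genes of microglia, the resident macrophages of the brain. These are P2RY12, TMEM119, CX3CR1, CSF1R, AIF1, TREM2, TYROBP, C1QA, C1QB and C1QC. The name refers to the resting state, but some of the genes are shared with other macrophages. The 10 genes were chosen by symbol, from knowledge of the cell type. Of these, 8 were found among the 16049 gene symbols for which the authors deposited a winter mean and a summer mean. TYROBP, the adaptor through which TREM2 signals, and C1QA, one of the chains of complement C1q, were not found under these symbols and were not analysed here. The samples were supraoptic nuclei, the hypothalamic cell groups that make vasopressin and oxytocin, of healthy, hydrated, age-matched adult male dromedary camels of the Tergui breed. The winter group was 2 camels slaughtered in January at El Oued, and the summer group was 2 camels slaughtered in June at Ouargla, both in Algeria. No treatment was given, and season, place and day of collection cannot be told apart. RNA depleted of ribosomal RNA was sequenced from each camel, and 4379162 to 6902037 reads fell on gene models. Models with a read numbered 40178 in the sample labelled summer 2 and 49320 to 52456 in the others. OXT, which encodes oxytocin, had means of 621 normalised counts in winter and 592 in summer.

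Microglia survey the tissue with fine processes and need continuous signalling through the receptor CSF1R to survive. In the resting state they carry the purine receptor P2RY12 and the fractalkine receptor CX3CR1, through which they sense injury and neurones, and they are the main source of the C1q chains in the brain. The supraoptic nucleus is known for its osmotic plasticity, in which glia change their coverage of neurones.

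The 8 genes did not share a direction between seasons. None was called at an adjusted p of 0.05 by edgeR's quasi-likelihood test, which called 0% of all 7665 symbols tested. The reads of each library could be fixed for only 3 of the 8, and the other 5 were tested over a range of possible reads. CSF1R had a 1.89-fold higher mean in winter and C1QB a 1.53-fold higher mean in summer, with the other 6 between them. The mean was higher in winter for 2 genes (CSF1R and TMEM119) and higher in summer for 6 (AIF1, P2RY12, TREM2, CX3CR1, C1QC and C1QB). The median log2 ratio of winter over summer was -0.26 over the 8 genes, beside -0.036 over all 13808 symbols that reached a mean of 10 in winter or summer, of which 53.8% were higher in summer. A mean more than 1.5-fold higher in winter was found for 1 of the 8 genes, beside 10.1% of all symbols, and a mean more than 1.5-fold higher in summer for 1 of 8, beside 12.2%. None of the 8 was more than 2-fold apart, beside 2.72% of all symbols that were more than 2-fold higher in winter and 4.53% that were so in summer. In whole tissue, fewer cells of a type and less RNA per cell cannot be told apart.

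**Figure D1:**
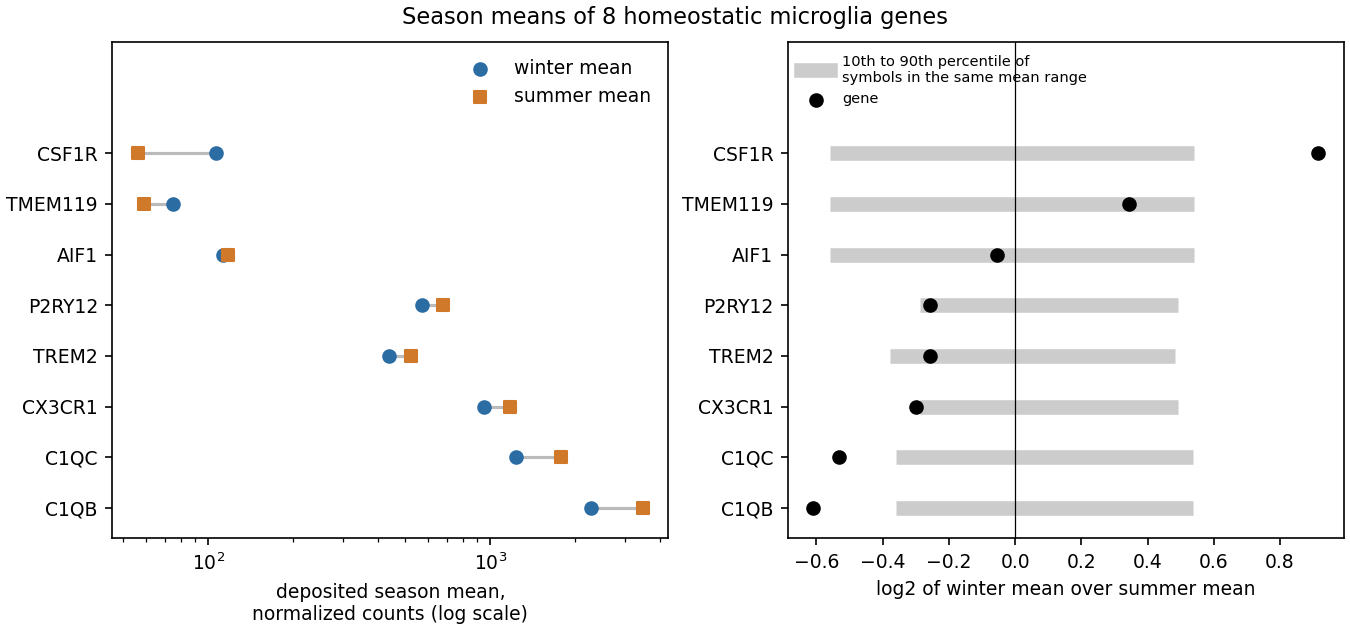
Left: deposited winter mean (circles) and summer mean (squares) of each of the 8 genes in normalised counts on a log axis. Right: log2 of winter over summer mean for the same genes, with a grey bar from the 10th to the 90th percentile of all symbols in the same range of means. CSF1R lies above its bar, C1QC, C1QB and CX3CR1 lie below theirs, and the other 4 lie inside.

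The season means do not show how far the 2 samples of a season lay apart. Each mean is the average of 2 read counts, each divided by the size factor of its library (a scaling for depth), so that 1 read is worth a fixed step in each library. For genes with few reads only 1 pair of whole numbers gives the deposited mean, and the reads of both libraries were recovered. For genes with many reads several pairs give the same mean, and each such pair is called a solution here. Recovered reads do not name the sample, so the libraries are called winter A (size factor 1.33), winter B (0.946), summer C (0.922) and summer D (0.877). Of the 8 genes, TMEM119, CSF1R and AIF1 had a single solution, and P2RY12, CX3CR1, TREM2, C1QB and C1QC had several. Seasons were compared with edgeR's quasi-likelihood test over the 7665 symbols that had a single solution and reached a mean of 10 in winter or summer, with Benjamini-Hochberg adjustment over all of them. The test called 0 of the 3 single-solution genes at an adjusted p of 0.05, and it called 0% of all symbols, with 152 symbols under an unadjusted p of 0.05. On the same reads edgeR's exact test and DESeq2 each called 1 symbol, which was none of the 3. An exact permutation test of 2 samples against 2 cannot give a two-sided p below 0.333.

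CSF1R, the receptor for the growth factors CSF1 and IL34, differed most. It had 159 reads in winter A, 87 in winter B, 71 in summer C and 31 in summer D. After division by the size factors these were 120.0, 92.0, 77.0 and 35.3 normalised reads, a winter mean of 106 ± 19.8 (SD, n = 2) and a summer mean of 56.2 ± 29.5 (SD, n = 2). The seasons did not overlap, winter being the higher, and summer D was the lowest of the 4. The fitted log2 fold change of winter over summer was 0.92 ± 0.45 (standard error), with an adjusted p of 0.983 by edgeR's quasi-likelihood test (0.0783 before adjustment). The rule the study used, more than 2-fold with an unadjusted p below 0.05, was met by 0 of the 3 genes, beside 0.848% of symbols higher in winter and 0.822% higher in summer. Among the 4070 symbols with means from 50 to 150 normalised counts, 89 had a higher log2 ratio than CSF1R.

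The size of the CSF1R difference depended on the summer pair. Without summer C the log2 fold change was 1.58 with an adjusted p of 0.0519, and without summer D it was 0.46 with an adjusted p of 0.658, in fits where the lone summer library is assumed to vary like the winter pair. Those fits called 289 of all 7665 symbols without summer C and 233 without summer D. Without summer C, 13 of the calls, 0.17% of all symbols, were higher in winter, CSF1R not among them. The median log2 fold change of all symbols was -0.16 without summer C and 0.16 without summer D, against -0.11 with all 4 libraries.

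TMEM119, a membrane protein of unsettled function that separates microglia from other macrophages, had 106 reads in winter A, 66 in winter B, 52 in summer C and 54 in summer D. These were 80.0, 69.8, 56.4 and 61.6 normalised reads. The seasons again did not overlap, with winter the higher, and the libraries of a season lay close together, with means of 74.9 ± 7.20 (SD, n = 2) in winter and 59.0 ± 3.65 (SD, n = 2) in summer. The fitted log2 fold change was 0.35 ± 0.37 (standard error), with an adjusted p of 0.983 by edgeR's quasi-likelihood test. Winter libraries above both summer libraries were therefore found for 2 of the 3 single-solution genes (CSF1R and TMEM119), beside 13.3% of all symbols tested, and summer libraries above both winter libraries for 0 of 3, beside 17.2%.

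AIF1, which encodes the calcium-binding protein Iba1 used to stain microglia, had 118 reads in winter A, 129 in winter B, 136 in summer C and 76 in summer D. The normalised reads were 89.0, 136, 147 and 86.6, so that each season held 1 high and 1 low library and the seasons overlapped fully. The winter mean was 113 ± 33.5 (SD, n = 2) and the summer mean 117 ± 43.0 (SD, n = 2). The fitted log2 fold change was -0.06 ± 0.41 (standard error), with an adjusted p of 0.988 by edgeR's quasi-likelihood test. Its sign turned with the scaling and with the library left out, from -0.40 without winter B to 0.38 without summer C.

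P2RY12, the ADP receptor that steers microglial processes towards released nucleotides, had means of 571 normalised counts in winter and 682 in summer, 1.20-fold higher in the latter. The winter mean allowed 3 solutions, with 796, 611 or 426 reads in winter A and 511, 643 or 775 in winter B. The summer mean allowed 2, with 854 reads in summer C and 384 in summer D, or 340 and 873. In normalised reads the summer libraries were 926 and 438, or 369 and 995. Under either summer solution the summer libraries lay more than 2-fold apart, and the seasons overlapped in all 6 combinations. The unadjusted p ran from 0.668 to 0.723 over the 6 combinations, and the adjusted p by edgeR's quasi-likelihood test was 0.986 in each.

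CX3CR1, the receptor for the neuronal chemokine CX3CL1, had means of 951 normalised counts in winter and 1169 in summer, 1.23-fold higher in summer. Its 4 winter solutions ran from even pairs (1354 and 833 reads, or 1169 and 965) to very uneven ones (2457 and 46, or 66 and 1752), and the summer mean allowed 37. Of the 148 combinations, 10 had both summer libraries above both winter libraries and 138 overlapped. Only 2 of the 4 winter and 13 of the 37 summer solutions had libraries within 2-fold, so these counts are not probabilities. The adjusted p by edgeR's quasi-likelihood test lay between 0.987 and 0.988 over all 148 combinations.

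TREM2, the lipid-sensing receptor of microglia, had means of 438 normalised counts in winter and 523 in summer, 1.20-fold higher in summer. The winter solutions were 963, 778 or 593 reads in winter A with 141, 273 or 405 in winter B, and the summer solutions were 630 reads in summer C with 319 in summer D, or 116 with 808. The summer libraries were thus 1.88-fold or 7.32-fold apart, and the seasons overlapped in all 6 combinations. The adjusted p by edgeR's quasi-likelihood test was 0.985 to 0.986. P2RY12 and TREM2 kept a ratio of 1.30 to each other in both seasons, and CX3CR1 had 1.67 times the normalised counts of P2RY12 in winter and 1.72 times in summer. These are ratios of season means, not of levels per length, and the solutions do not fix them in any single library.

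**Figure D2:**
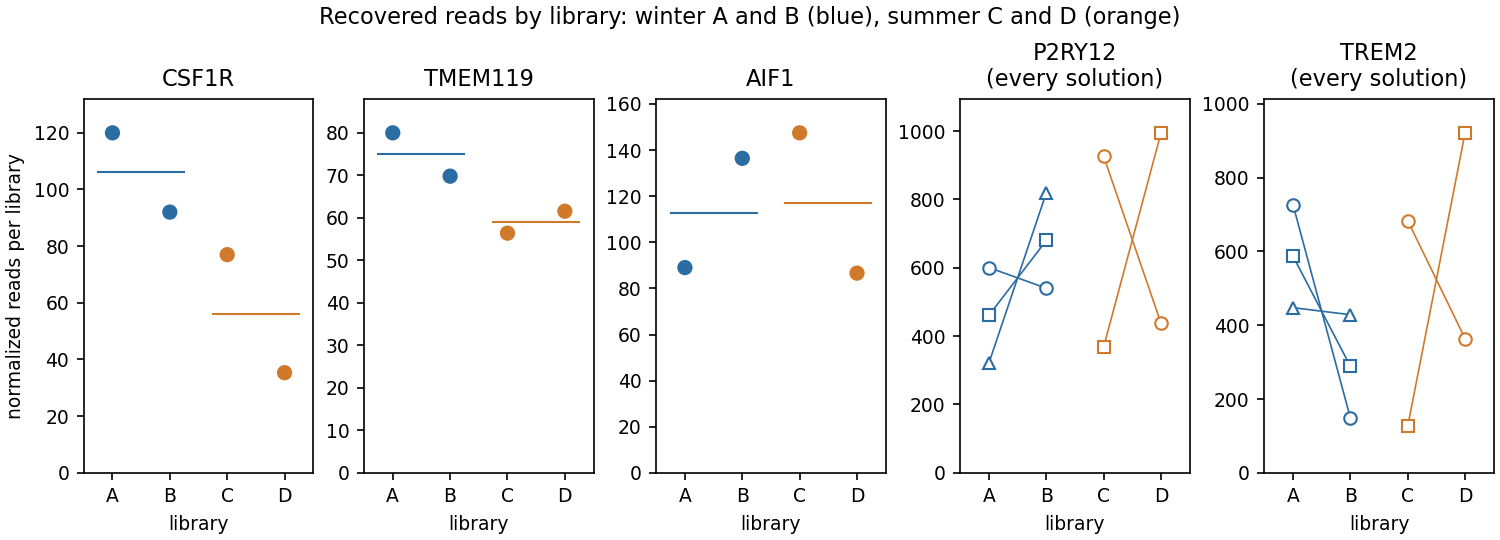
Normalised reads per library for the 3 genes with a single solution (filled points, with a line at each season mean) and every solution for P2RY12 and TREM2 (open points, where a line joins the 2 libraries of 1 solution). The winter libraries of CSF1R and TMEM119 lie above the summer libraries, while AIF1 and each combination for P2RY12 and TREM2 overlap.

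C1QB and C1QC encode chains of C1q, the recognition molecule that starts the classical complement pathway and tags debris and synapses. C1QB had means of 2278 normalised counts in winter against 3476 in summer, and C1QC had 1230 and 1778, which were 1.53-fold and 1.45-fold higher in summer. The ratio of C1QB to C1QC was 1.85 in winter and 1.95 in summer, so that both chains differed between seasons by nearly the same factor. Among the 220 symbols with means from 1500 to 5000 normalised counts, 8 had a log2 ratio below that of C1QB (-0.61) and 12 below that of C1QC (-0.53).

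The spread of the C1q chains between samples could not be fixed. C1QB had 13455 combinations of solutions, of which 1197 had both summer libraries above both winter libraries and 12258 overlapped. Only 39 of its 117 winter solutions and 39 of its 115 summer solutions had libraries within 2-fold of each other. The ratios ran up to 195 in winter and 711 in summer, so the counts of combinations are not probabilities. By edgeR's quasi-likelihood test the unadjusted p of C1QB ran from 0.0477 to 0.873, with 7 combinations under 0.05. Its lowest adjusted p by that test was 0.978. C1QC had 3480 combinations, 255 with summer above winter and 3225 overlapping. Of its solutions, 20 of 60 in winter and 19 of 58 in summer had libraries within 2-fold. By the same test its unadjusted p ran from 0.323 to 0.853, with a lowest adjusted p of 0.978. Reads shared between the chains, which are related in sequence, were not measured.

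By the season means, the ratios of CSF1R to P2RY12, C1QB, AIF1 and TMEM119 were lower in summer. CSF1R had the highest log2 ratio of the 8 genes and C1QB the lowest, so these ratios restate the season means. Ratios without CSF1R differed for TMEM119 to P2RY12 (0.131 in winter, 0.0865 in summer) but not for P2RY12 to TREM2 (1.30 in both). CSF1R had 0.186 times the normalised counts of P2RY12 in winter and 0.0824 times in summer, and 0.0465 against 0.0162 times those of C1QB, which is 2.26-fold and 2.88-fold less in summer. Against AIF1, library by library, CSF1R stood at 1.35 in winter A, 0.674 in winter B, 0.522 in summer C and 0.408 in summer D. Against TMEM119 it stood at 1.5, 1.32, 1.37 and 0.574. The lower summer ratio to TMEM119 thus came from summer D, while the ratios to AIF1 did not overlap between seasons and were lower in summer. No test was run on these ratios.

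The 2 samples of a season also differed from each other. Summer C held 2.18 times the normalised CSF1R reads of summer D and 1.70 times the AIF1 reads, but 0.916 times the TMEM119 reads. Winter A held 1.30 times the CSF1R reads of winter B, 1.15 times the TMEM119 reads and 0.653 times the AIF1 reads. The genes of the list therefore did not rank the 2 samples of a season alike. Over the 4647 symbols with a single solution and more than 20 normalised reads in every library, the median difference between the libraries of a season was 0.36 on the log2 scale in winter and 0.46 in summer, and 7.83% of symbols in winter and 16.4% in summer were more than 2-fold apart.

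**Figure D3:**
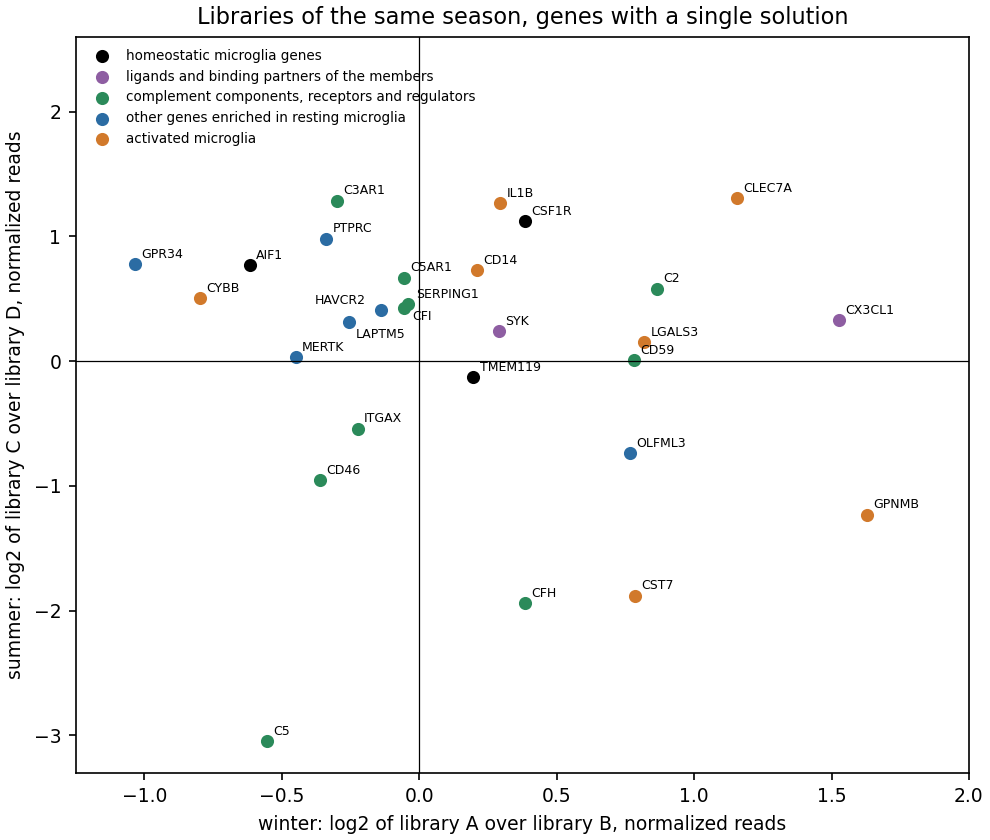
Each point is a gene with a single solution, placed by the log2 ratio of winter library A over B (horizontal) and of summer library C over D (vertical), for the homeostatic genes and for 4 related lists. AIF1, CSF1R and TMEM119 lie in different quadrants of the plot, TMEM119 close to the centre.

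The ligands and signalling partners of these receptors had no common direction either. Of 9 such genes 7 were measured, with a median log2 ratio of -0.07, 2 higher in winter and 5 in summer. Reads could be tested for the 2 of them with a single solution (CX3CL1 and SYK), and 0 passed either the adjusted threshold or the rule of the study. IL34, a ligand of CSF1R, had means of 245 normalised counts in winter and 275 in summer. It was only 1.12-fold higher in summer, and its reads could not be fixed. CX3CL1, the ligand of CX3CR1, had means of 57.4 in winter and 28.3 in summer. Its normalised reads were 85.3 in winter A, 29.6 in winter B, 31.4 in summer C and 25.1 in summer D, so that winter A alone stood apart (adjusted p = 0.983, edgeR's quasi-likelihood test). PLCG2, which signals downstream of TREM2, had the lowest log2 ratio of the list, -0.21. CSF1 was not analysed here.

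Of 18 other complement genes, 15 were measured at a mean of 10 or more, with 4 higher in winter and 11 in summer and a median log2 ratio of -0.24. Among them 7 were more than 1.5-fold higher in summer, beside 12.2% of all symbols, and 0 more than 1.5-fold higher in winter, beside 10.1%. Of the 7, C5 had 32.4 and 47.6 normalised reads in winter A and B, 16.3 in summer C and 134 in summer D. CD46 had 45.3 and 58.2 in winter A and B, 54.2 in summer C and 105 in summer D. The higher summer means of C5 and CD46 thus came from summer D. Of the 10 with a single solution, 3 had both summer libraries above both winter libraries, beside 17.2% of all symbols tested. The reverse held for 1 of the 10, beside 13.3%, and 0 of the 10 passed either threshold. C3, the central component that C1q activation leads to, had means of 4622 in winter and 3257 in summer, the opposite direction to C1QB and C1QC, and its reads could not be fixed. ITGAX, a subunit of a receptor for cleaved C3, had means of 4.91 and 17.3 and only 5 to 18 reads per library, with both summer libraries above both winter libraries (adjusted p = 0.983, edgeR's quasi-likelihood test). C1R, a protease that joins C1q in the C1 complex, had means of only 1.28 and 2.20 and was not tested.

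Of the transcription factors that set microglial identity, 8 of 9 were measured at a mean of 10 or more, with 6 higher in winter, 2 in summer and a median log2 ratio of 0.36. MEF2C, a factor of the adult resting state, had the lowest ratio (-0.32, means of 333 and 414). IRF8, which microglia need to develop, had means of 593 and 500. SPI1, which encodes the macrophage factor PU.1, had means of only 2.34 and 1.08 and was not tested. Of these factors 1 had a single solution and could be tested, and it passed neither threshold.

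Of 20 other genes enriched in resting microglia 14 were measured, with 5 higher in winter, 9 in summer and a median log2 ratio of -0.09. Of the 6 with a single solution, 0 passed either threshold. GPR34, a receptor for a lysophospholipid, had the lowest ratio, -0.93. It had 49.0 normalised reads in winter A, 100.5 in winter B, 180.0 in summer C and 105 in summer D, so that both summer libraries lay above both winter libraries, by little in the case of summer D (adjusted p = 0.983, edgeR's quasi-likelihood test). LAPTM5, a lysosomal protein of blood-lineage cells, had the highest ratio, 0.43, at means of 22.3 and 16.6. PTPRC, the pan-leukocyte gene CD45, had means of 105 and 110, a log2 ratio of -0.07.

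Of 18 genes of activated microglia 13 reached a mean of 10 in winter or summer, with 4 higher in winter, 9 in summer and a median log2 ratio of -0.15. GPNMB, a membrane glycoprotein of lipid-laden phagocytes, met the rule of the study. It was 1 of 7 activated genes with a single solution, beside 0.822% of all symbols tested that met the rule as higher in summer. The paper had already named GPNMB among its genes higher in summer, from the same samples, so this repeats its result. Genes with several solutions were not tested in the lists. GPNMB had only 6 to 58 reads per library. These were 19.6 normalised reads in winter A, 6.35 in winter B, 28.2 in summer C and 66.1 in summer D. Both summer libraries lay above both winter libraries, with an adjusted p of 0.983 by edgeR's quasi-likelihood test (0.0453 before adjustment). CST7 had the highest ratio, 1.27, at means of 24.5 and 10.1, with only 4 to 41 reads per library. Both winter libraries of CST7 lay above both summer libraries, the opposite direction to GPNMB. CD68, a lysosomal macrophage gene, had a mean of 2.19 in winter and was listed at 0 in summer.

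**Figure D4:**
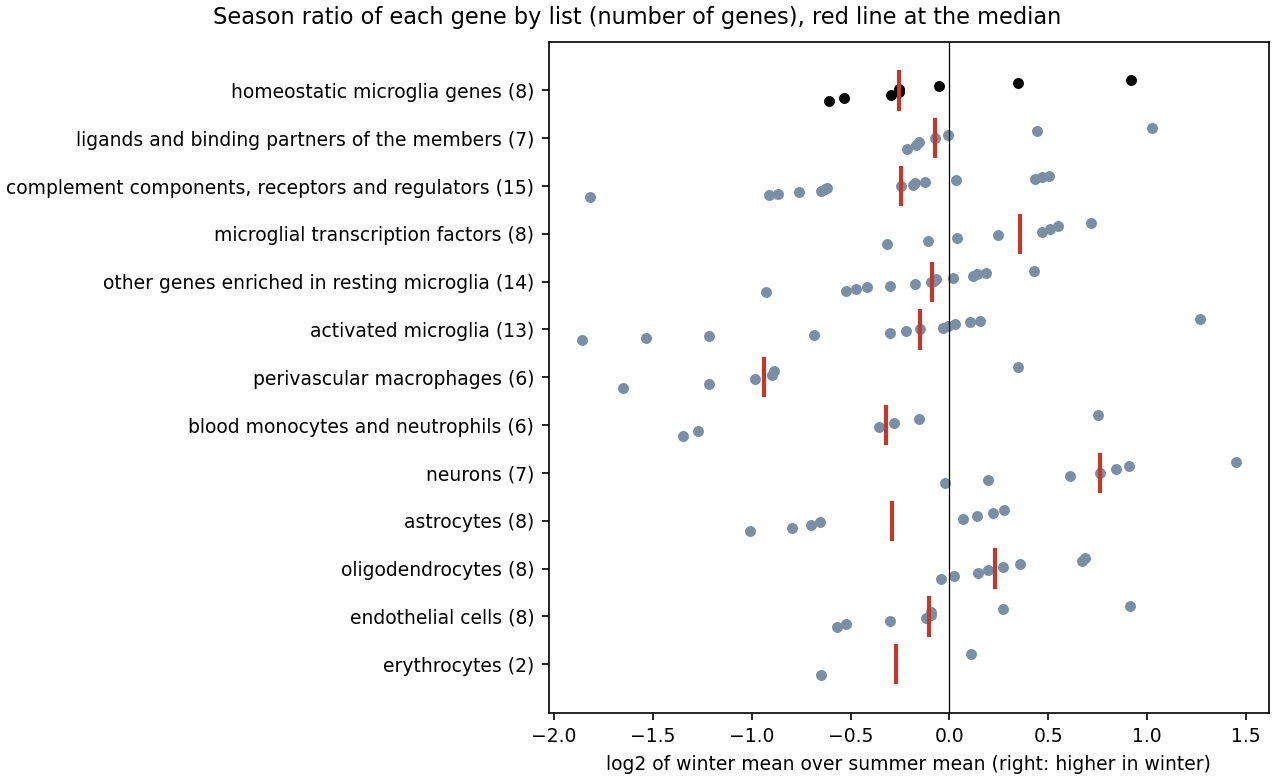
Log2 ratio of winter over summer mean for every gene that reached a mean of 10 in winter or summer, by list, with the number of genes in brackets and a red line at the median of the list. The 8 homeostatic microglia genes (black) spread from -0.61 to 0.92, and the perivascular macrophage genes have the lowest median (-0.94).

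The means of markers of other cell types differed between seasons as well, and their part in the values above was not tested. Perivascular macrophages share CSF1R, AIF1 and the C1q chains with microglia. Of their markers 6 of 8 reached a mean of 10, with 1 higher in winter (LYVE1, 0.35), 5 in summer (F13A1 lowest, -1.65) and a median log2 ratio of -0.94. Their summed mean was 344 normalised counts in winter and 664 in summer. The 5 with a single solution summed to 152 and 235 in the winter libraries and to 171 and 561 in summer C and D. MRC1 (229 normalised reads) and CD36 (236) made up most of the sum in summer D, while F13A1 was highest in summer C and LYVE1 in winter A. Summer D was the lowest library for CSF1R and AIF1. Of the blood monocyte and neutrophil markers 6 of 10 reached that mean, with a median of -0.32 and CSF3R highest at 0.75. The 5 of them with a single solution summed to 154 and 223 in winter and to 237 and 219 in summer, and MPO was listed at 0 in winter and had a mean of 2.28 in summer.

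Neuronal markers were higher in winter in 6 of 7 cases, with a median log2 ratio of 0.76, from MAP2 at -0.02 to NEFM at 1.45. The 2 with a single solution summed to 405 normalised reads in winter A and 159 in winter B. In summer C and D they summed to 94.3 and 233, so summer D lay above winter B. Of these 2 markers, 1 was higher in both winter libraries than in both summer libraries, beside 13.3% of all symbols tested. Astrocyte markers were divided, 4 in each direction, with a median of -0.29, from AQP4 at -1.01 to ALDH1L1 at 0.28, and a summed mean of 25190 in winter and 39996 in summer, a difference that lay in GFAP (14423 and 25074) and S100B (7490 and 11788). The 3 astrocyte markers with a single solution summed to 334 and 157 in winter A and B and to 137 and 296 in summer C and D. Oligodendrocyte markers were higher in winter in 7 of 8 cases, with a median of 0.23, and MAG highest at 0.69. Endothelial markers had a median of -0.11, from ESAM at -0.57 to CDH5 at 0.91, and of the erythrocyte markers 2 reached a mean of 10, ALAS2 at 0.11 and HBB at -0.65. A single solution was found for 2 neuronal, 3 astrocyte, 4 endothelial and 1 erythrocyte markers. It was found for 0 oligodendrocyte markers, so none of those was tested. Of the genes with a single solution in any of these lists, 0 passed an adjusted p of 0.05, the lowest being 0.983 by edgeR's quasi-likelihood test.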

How the data were processed

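Total RNA libraries were aligned by the authors with TopHat to their own assembly and counted with HTSeq, per the labels and methods. The deposited counts are raw reads for 64989 unnamed gene models and gave only the depth (72.2% to 79.3% of tallied alignments were not on models). The table the authors deposited gives per symbol a signal (the season mean of counts over DESeq size factors), a fold change and a p-value from edgeR, of which the last pair was not used. Values were given by symbol, without coordinates.

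Reads were recovered by solving each mean for 2 whole numbers. Low means (under 20) were whole in 100.0% of cases, against 0.278% (winter) and 0.134% (summer) after being moved by up to 3%. Single solutions were found for 9906 symbols. They favour low winter means. Reads were tested with edgeR 4.0.16 (glmQLFit, glmQLFTest, step size factors) in R 4.3.3, and every solution of the other genes was added to the fit as a row. The biological coefficient of variation was 0.32. The scripts were tested on simulated data. DESeq2 1.42.0, the exact test, other scalings, no filter and leaving out each library were alternatives.

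The genes and lists were chosen with earlier results of these data known. Named were all 10 genes, the highest and lowest ratio of each list and any gene past the rule of the study; some genes that this names are not reported here. OXT, IL34, SYK, C5, CD46, MRC1, CD36, GFAP, S100B, C1R, IRF8, SPI1, PTPRC, CD68 and MPO were named after their values were seen. The libraries came from 2 camels per season, per the methods. The p-values set the difference between seasons against a spread estimated from these few animals, with information shared over all tested symbols.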

Additional observations from a re-analysis of the deposited data

How the results depend on the processing

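The 10 alternatives were TMM, RLE and total-count scaling, the exact test, DESeq2, no filter on low means, and each library left out. With all 4 libraries, none of them called any of the 3 genes with a single solution. Of all symbols, the exact test and DESeq2 called 1 each and the other settings with all 4 libraries called 0. The absence of calls was therefore not particular to the 3 genes. The log2 fold changes of CSF1R and TMEM119 kept their direction in all 10 alternatives. With a library left out they ran from 0.46 to 1.58 and from 0.24 to 0.44. AIF1 reversed with total-count scaling (0.0078), without winter library A (0.22) and without summer library C (0.38), and ranged from -0.40 to 0.38 with a library left out. With a library left out, the solutions allowed log2 ratios from -1.08 to 0.63 for P2RY12, from -1.81 to 1.80 for TREM2 and from -4.59 to 4.46 for CX3CR1. Leaving out summer library D moved the median of all symbols by 0.27. The median of the 8 genes stayed at -0.26 with a pseudocount of 1 and with the C1q chains counted once, and that of the 3 single-solution genes lay between 0.24 and 0.44. No paired analysis was possible because the winter and summer camels were different animals.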
